A study of Mus musculus with 10 samples.

Results

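The genes described here mark T cells and natural killer cells or encode the proteins with which such cells kill. All probes named for 10 genes were taken, whatever their signal: Cd3e, Cd4, Cd8a and Foxp3 for T cells, and Ncr1, Klrd1, Nkg7, Gzma, Gzmb and Prf1 for natural killer and other cytotoxic cells. These are 10 of the 27670 genes on the array, measured by 15 of its 41174 probes. Of the 10 genes, 9 were well above background in lung RNA on all 10 arrays, and Foxp3 was the exception.

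T cells recognise fragments of proteins through the T cell receptor, which signals through the CD3 chains. CD4 marks helper T cells and the regulatory T cells that need the factor Foxp3, while CD8 marks T cells that can kill. Natural killer cells carry no such receptor and read a balance of activating and inhibiting receptors on their surface. Both kinds of killer cell release granules that hold perforin, which opens the membrane of the target, and granzymes, proteases that enter the target and start its death. In the lung both lie in the tissue and along the airways, where they act against virus-infected and altered cells.

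The lungs came from female mice of the inbred strain BALB/c, with no genetic change, obtained at an age of 6 to 8 weeks. The smoke group breathed mainstream smoke of reference cigarettes through whole body exposure, 12 cigarettes at a time for 50 minutes, with 2 such exposures on each of 5 days a week over 8 weeks. The control group breathed room air over the same time. Each group had 5 mice, and each lung was hybridised to an array of its own.

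The sample labels name 1 dye, but each array was read in red and in green, so genes with a known source were used to find out what each colour holds. Sftpc, Scgb1a1, Ager and Cldn5, genes of alveolar, airway and vessel cells, were brighter in red by 6.39, 6.72, 4.83 and 5.81 on the log2 scale, so the lung tissue on the label was borne out in red. The Y chromosome genes Ddx3y and Eif2s3y had log2 processed signals of 9.92 ± 0.43 and 9.76 ± 0.35 in green and of 2.97 ± 1.15 and 2.76 ± 0.26 in red (SD, n = 10 arrays). Red was therefore read as female lung and green as a common reference with some male RNA in it. Each level below is a log2 ratio, lung in red divided by reference in green. The deposited value table gives the groups the other way round from the scanner files, since each of its 286449 values equals that of the array of the same number in the other group to within 0.0001. Each direction given here rests on the scanner files' own assignment. On that assignment Cyp1b1, which aryl hydrocarbons of smoke induce, stood at -2.07 to -1.36 with room air and at 1.25 to 1.61 with smoke. Nqo1, an enzyme of the same response, ran from -2.45 to -2.27 and from -0.45 to 0.05, and Ahrr, its repressor, from -0.56 to 0.03 and from 1.56 to 1.92, in the same order. The groups did not overlap for these genes, which were picked with their values known. The paper of the study also lists Cyp1b1, Nqo1 and Ahrr as increased by smoke in mice. Cyp1a1, a further target, overlapped, at 3.42 to 6.38 and 6.10 to 7.05 (difference 1.09, adjusted p = 0.254 in limma).

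Each slide carried the smoke and the room air array of the same replicate number, smoke always at place 1 and room air at place 2, so treatment and place on the slide cannot be told apart, with or without the slide as a block. Slide 4 stood apart from the other slides: 4954 of 41174 probes (12%) were over 3 times brighter in red on both of its arrays than the median of the other arrays, and 4891 (11.9%) were so in green. On no other slide did more than 32 probes in red or 18 in green do so. Cd3e and Cd4 were among these probes in red, and probes of Cd4, Cd8a and Foxp3 were among them in green. The room air array 1 also stood apart for a few genes of inflammation, with S100a8 at 4.39 against 1.49 to 2.09 on the other room air arrays. Calls of named genes that change without slide 4 or without that array, and list counts that change by over 1.5 times, are given with and without it.

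**Figure D1:**
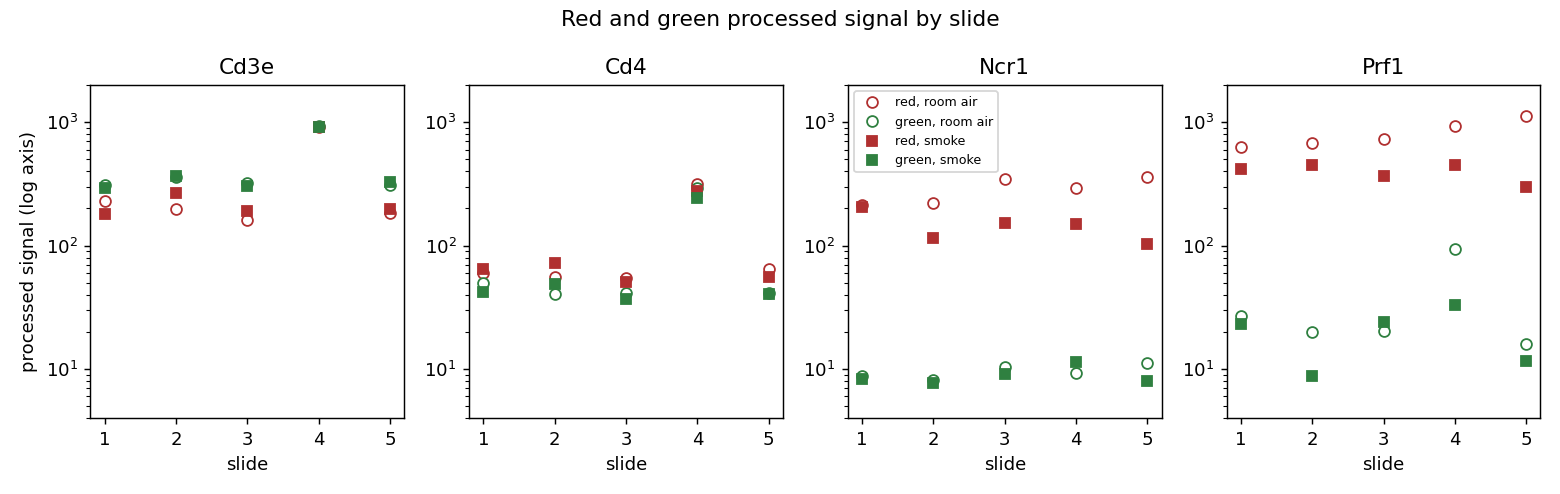
Processed signal of Cd3e, Cd4, Ncr1 and Prf1 in red (lung) and green (reference) on each of the 5 slides, on a log axis, with room air as open circles and smoke as filled squares. Cd3e and Cd4 are brighter in both colours on slide 4, whereas the red signal of Prf1 is lower with smoke than with room air on each slide.

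Cd3e encodes a chain that every CD3 complex needs. In the lungs exposed to room air its log2 ratios were -0.08, -0.34, -0.42, 0.04 and -0.25 for replicates 1 to 5, and in the smoke-exposed lungs they were -0.18, -0.11, -0.22, 0.12 and -0.28. The groups overlapped almost throughout, and the highest value of each group lay on slide 4. There the red processed signal of Cd3e was 919 with room air and 909 with smoke, against 160 to 267 on the other arrays, while the green signal also stood at 932 and 912. The difference between smoke and room air was 0.076 ± 0.098 on the log2 scale (SE; 95% interval -0.14 to 0.29; adjusted p = 0.808 in limma), and 0.20 in the red channel alone at the 75th percentile (adjusted p = 0.952). A further Cd3e probe was well above background in red on 1 array of each group and is not read.

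Cd4 encodes the co-receptor of helper and regulatory T cells. Its ratios were 0.05, 0.07, 0.07, 0.12 and 0.12 with room air and 0.13, 0.12, 0.10, 0.17 and 0.09 with smoke. The groups overlapped, and each value lay close to 0 on this scale, which an offset compresses for so dim a probe. On each array the red processed signal was above the green. Red ran from 54.5 to 317 with room air and from 51.1 to 275 with smoke. Green ran from 40.4 to 290 and from 36.6 to 241, in the same order. Smoke and room air differed by 0.036 ± 0.039 (95% interval -0.050 to 0.12; adjusted p = 0.755 in limma), or by 0.11 in the red channel alone at the 75th percentile and 0.098 with an offset of 0. The other Cd4 probe was not well above background on any array.

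Cd8a, a chain of the co-receptor of killer T cells, was brighter in the lung than in the reference. It stood at 1.51, 0.96, 1.28, 0.79 and 1.40 with room air and at 1.45, 1.04, 1.19, 0.74 and 0.94 with smoke. The groups overlapped, and slide 4 held the lowest value of each. The difference was -0.12 ± 0.16 (95% interval -0.46 to 0.22; adjusted p = 0.813 in limma). It was -0.23 with an offset of 0, -0.067 with arrays scaled to each other and 0.26 with the scanner's own log ratio, and the other Cd8a probes gave -0.029 and -0.088, with adjusted p of 0.946 and 0.626, the latter well above background in red on 5 room air and 3 smoke arrays.

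Foxp3, the factor of regulatory T cells, was dim. It was well above background in red on 1 of 5 room air arrays and on 4 of 5 smoke arrays. The ratios were 0.04, -0.01, 0.07, -0.11 and 0.15 with room air and 0.14, 0.02, 0.14, 0.10 and 0.27 with smoke. On each of the 5 slides the smoke array was the higher, yet the groups overlapped. The difference of 0.11 ± 0.060 had an adjusted p of 0.414 in limma. It passed the threshold when no background was subtracted (0.17, adjusted p = 0.0263), the only other fit but 1 in which any T cell member did; the exception was the red channel alone with the slide as a block, again for Foxp3 (adjusted p = 0.0232). No fold change is given, since the gene stood well above background on only 1 room air array.

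Across the array 2906 of 41173 probes (7.06%) passed the adjusted p threshold of 0.05 in limma, 1793 (4.35%) higher and 1113 (2.70%) lower with smoke. By brightest probe 2270 of 27669 genes passed (8.20%), of which 1366 (4.94%) were higher and 904 (3.27%) lower. Of the 4 T cell members, 0 passed in limma and 0 had an unadjusted p under 0.05. The exact Wilcoxon test passed 0 of these and 0 probes of the whole array, so its counts of 0 here and below say nothing about the genes. Their median difference was 0.056, beside a median of -0.0042 over all genes. The 95% intervals of Cd3e and Cd4 end at 0.29 and 0.12 on this scale, which an offset compresses for dim genes such as Cd4. As the RNA came from whole lung, fewer cells of a type and less RNA per cell cannot be told apart for any gene described here.

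**Figure D2:**
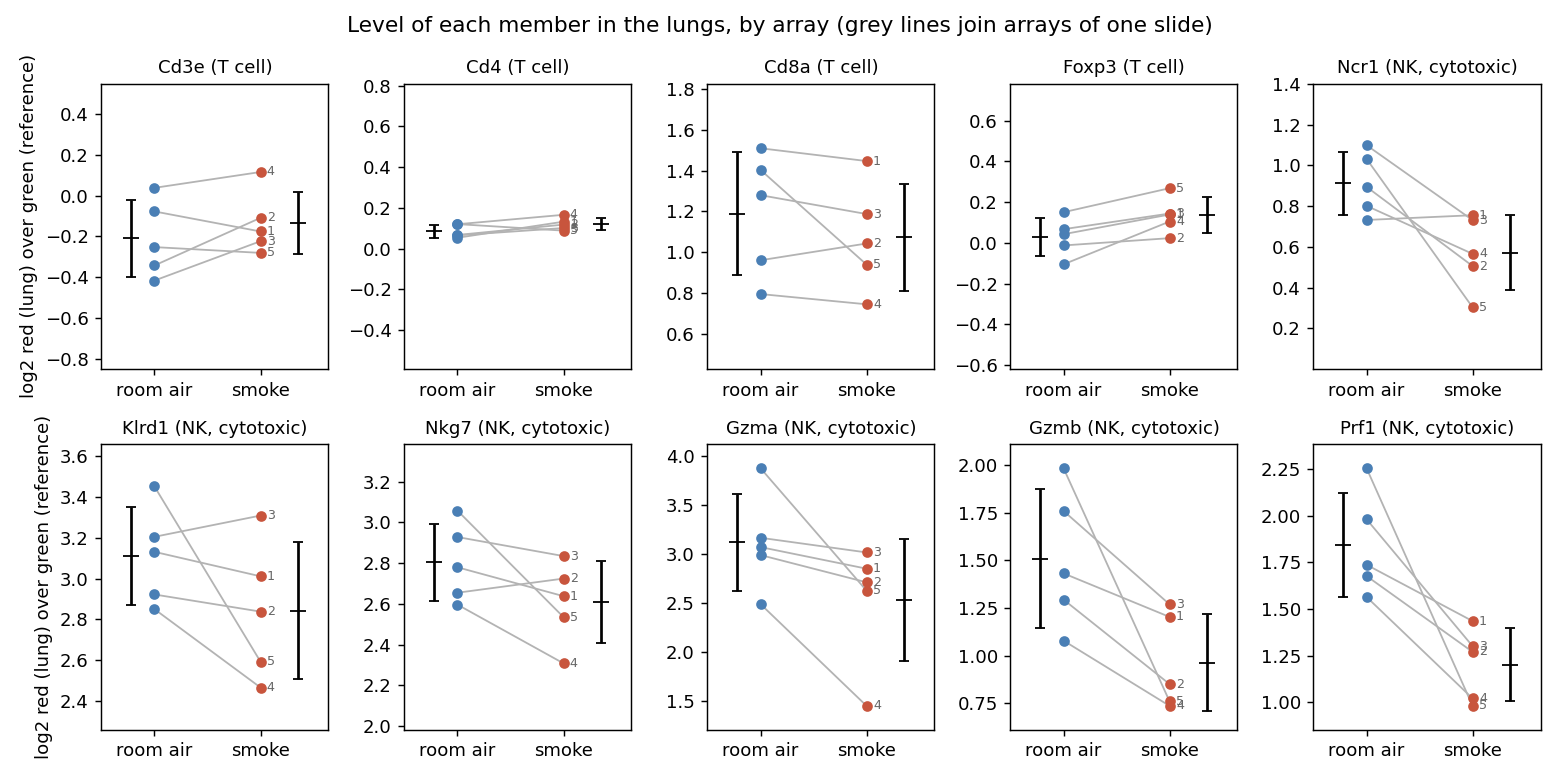
Log2 ratio of red (lung) over green (reference) of each gene, with room air in blue and smoke in red. Each point is 1 lung, grey lines join the 2 arrays of a slide, small numbers give the slide, and black bars show the mean and SD (n = 5). The Prf1 values with smoke (0.98 to 1.43) all lie below those with room air (1.56 to 2.26), while the other genes overlap.

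Prf1 encodes perforin, the pore protein of cytotoxic granules. Its ratios were 1.74, 1.68, 1.98, 1.56 and 2.26 in the lungs exposed to room air and 1.43, 1.27, 1.30, 1.02 and 0.98 in the smoke-exposed lungs. Every smoke value lay below every room air value, and smoke was lower on each slide, by as little as -0.30 on slide 1 and as much as -1.28 on slide 5. Such a separation in the lower direction was seen for 1150 of 41133 probes measured on all arrays (2.80%), and in either direction for 6.89%. The red processed signal ran from 633 to 1110 with room air and from 299 to 452 with smoke. Prf1 fell by 0.64 on the log2 scale of the ratio, which the offset compresses (SE 0.13; 95% interval -0.93 to -0.35; adjusted p = 0.0128 in limma and 0.015 with the slide as a block). With either way of scaling the red channel alone the fall was at least as large (-0.90 and -0.68, adjusted p = 0.0415 and 0.0225 in limma), and without slide 4 it was -0.67 (adjusted p = 0.0262). The green signal of Prf1 was well above background on 1 of 10 arrays. Prf1 did not pass with an offset of 0 (-0.86, adjusted p = 0.314), with the scanner's own log ratio (-0.40, adjusted p = 0.783), with arrays scaled to each other (-0.59, adjusted p = 0.0683), in the red channel alone with the slide as a block (-0.90, adjusted p = 0.0582), or in the exact Wilcoxon test (adjusted p = 0.115).

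Gzmb encodes granzyme B, the granule protease that cleaves and activates the caspases of the target. It stood at 1.43, 1.29, 1.76, 1.08 and 1.98 with room air and at 1.20, 0.85, 1.27, 0.74 and 0.76 with smoke. Smoke was lower on 5 of 5 slides, while the groups as a whole overlapped. The difference was -0.55 ± 0.17 and missed the threshold in limma (adjusted p = 0.0882), but passed with the slide as a block (adjusted p = 0.0315). It also passed without room air replicate 4 (-0.65, adjusted p = 0.0381). The green signal was well above background on 2 of 10 arrays, and the difference was -0.84 in the red channel alone at the 75th percentile and -0.88 with an offset of 0 (adjusted p = 0.144 and 0.168). In the red channel alone with the slide as a block Gzmb did not pass either (adjusted p = 0.109 in limma).

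Gzma encodes granzyme A, a protease of the same granules. Its ratios were 3.07, 2.99, 3.16, 2.49 and 3.87 with room air and 2.85, 2.71, 3.01, 1.45 and 2.62 with smoke. Smoke was again lower on each slide, and the value of 1.45 on slide 4 lay far below the other smoke values. The difference of -0.59 ± 0.30 did not pass (95% interval -1.25 to 0.078; adjusted p = 0.357 in limma, 0.0616 with the slide as a block). Without the smoke array of slide 4 the difference was -0.32, and with the scanner's own log ratio it was -1.16 (adjusted p = 0.191).

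Ncr1 encodes NKp46, an activating receptor of natural killer cells. It stood at 0.73, 0.89, 1.10, 0.80 and 1.03 with room air and at 0.75, 0.51, 0.73, 0.57 and 0.30 with smoke. Apart from replicate 1, where the arrays were nearly level, each smoke array lay below its partner, and the groups overlapped narrowly. The difference of -0.34 ± 0.097 missed the threshold (adjusted p = 0.0625 in limma, 0.0566 with the block). It passed without room air replicate 1 (-0.38, adjusted p = 0.0324) and without slide 1 (-0.43, adjusted p = 0.0286). The green signal of Ncr1 was well above background on 0 of 10 arrays, and the difference was -0.89 with the scanner's own log ratio, where it passed (adjusted p = 0.024), and -0.86 in the red channel alone at the 75th percentile and -0.82 with an offset of 0, where it did not (adjusted p = 0.0752 and 0.356).

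Klrd1 encodes CD94, which pairs with NKG2 chains to read a class I molecule on other cells. Its ratios were 3.13, 2.92, 3.21, 2.85 and 3.45 with room air and 3.01, 2.84, 3.31, 2.47 and 2.59 with smoke. The groups overlapped over most of their range, and the pair on slide 5 was the farthest apart. The difference was -0.27 ± 0.16 (adjusted p = 0.450 in limma). The red processed signal, which is not scaled between arrays, ran from 1838 to 3068 with room air and from 1224 to 1667 with smoke. Green was well above background on 2 of 10 arrays. In that red signal the groups were apart for Klrd1, Ncr1, Gzmb, Prf1 and Nkg7, and overlapped for Gzma and the T cell members. The share of all probes apart in this way was not computed. The Klrd1 difference was -0.51 and -0.45 in the red channel alone and -0.41 with median centring. It was -0.15 with arrays scaled to each other, but the scanner's own log ratio and an offset of 0 turned it to 0.44 and 0.14. None of these passed the threshold in limma.

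Nkg7 encodes a membrane protein of cytotoxic granules. It stood at 2.78, 2.65, 2.93, 2.60 and 3.06 with room air and at 2.64, 2.72, 2.83, 2.31 and 2.53 with smoke. Smoke was lower on 4 of 5 slides and the groups overlapped. The difference was -0.20 ± 0.11 (adjusted p = 0.418 in limma), and the other Nkg7 probe gave -0.18 (adjusted p = 0.342). The red processed signal was lower with smoke on 5 of 5 slides for each probe, and so was the green signal of the reference, which was well above background on all 10 arrays. The brighter probe ran from 2555 to 4297 with room air and from 1807 to 2411 with smoke in red, and from 179 to 302 and from 126 to 204 in green. What lowered the green signal was not tested. In the red channel alone the difference was -0.42 and -0.39, with median centring -0.34, with arrays scaled to each other -0.075 and with an offset of 0 it was -0.025.

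Read together, 1 of the 6 natural killer and cytotoxic members passed the threshold in limma, in the lower direction, where 2.70% of all probes did. With the slide as a block 2 of 6 passed, Prf1 and Gzmb, where 5.41% of all probes were called lower. With that block in the red channel alone 0 of 6 passed. All 6 differences lay below 0, from -0.20 to -0.64 with a median of -0.44, but Klrd1 and Nkg7 turned to 0.44 and 0.067 with the scanner's own log ratio and Klrd1 to 0.14 with an offset of 0. Within slides, 27 of the 30 differences between partners were below 0 for these genes, against 7 of 20 for the T cell members. These counts pool genes measured on the same 5 pairs of arrays, so the values are not separate observations. The share over all genes was not computed. Among the T cell members, Foxp3, well above background in red on 1 room air array, was higher with smoke on each slide. The median within a slide ran from -0.18 on slide 1 to -1.04 on slide 5 for the natural killer and cytotoxic members, and from -0.030 to 0.067 for the T cell members. Whether the members of the 2 kinds differ in their response was not tested.

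**Figure D3:**
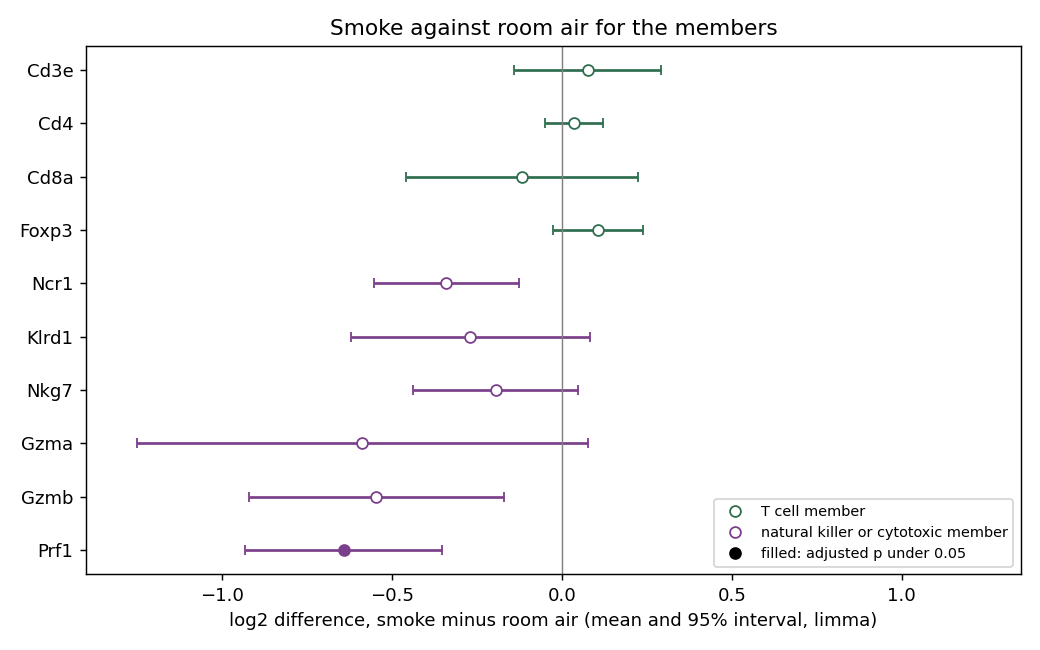
Log2 difference between smoke and room air for each gene, with the 95% interval from limma, T cell members in green and natural killer or cytotoxic members in purple. Prf1, at -0.64, is the filled point, past the threshold; the T cell members lie between -0.12 and 0.11.

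Prf1 and Cd3e were also compared with other genes from lung to lung within a group. Whether the cytotoxic genes as a set varied together was not tested. Deviations from the group means were compared over the 10 arrays among 17133 genes well above background in red, as a description that includes the slide. The genes most like Prf1 were Fasl (r = 0.950), the death ligand of cytotoxic cells, then Cct7 (0.942), Gzmb (0.935), Trib2 (0.921) and Psme3ip1 (0.916). Nkg7 ranked 57 and Klrd1 72 in that order, with r of 0.842 and 0.834, and Gzma, Ncr1 and Cd8a followed at 0.772, 0.749 and 0.739. Cd3e had r = -0.418 to Prf1 and Cd4 had r = 0.135. The highest Cd3e value of each group lay on slide 4, and the part of that slide in these r was not tested. The 5 genes most like Cd3e include Ctrb1, a digestive enzyme (r = 0.937), and Oc90, a protein of the inner ear (0.934), and the rest carry clone names. Of these 5, 3 were among the probes that were brighter on slide 4.

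As a further description, the sequences around the start sites of the members were searched. RefSeq promoters of the GRCm38.p6 build, from 250 bases before to 50 after the start, were held for 8 of the 10 genes, and not for Cd4 or Klrd1. The search covered both strands for TGTGGT, the core bound by RUNX factors, GGTGTG, the core of T-box factors, GGAAGT, of ETS factors, and TGANTCA, of AP-1, where the RUNX and T-box cores can share letters. TGTGGT or its complement lay in the promoters of all 5 natural killer and cytotoxic members held, Prf1, Gzmb, Gzma, Ncr1 and Nkg7, and of 0 of the 3 T cell members held. Of 32851 promoters, 5506 (16.8%) hold it. The other cores were found in 1, 2 and 1 of the members, against 19%, 23.8% and 7.81% of all promoters. A match of letters is a description and not a bound site. The promoters of the genes with the largest differences and of Ncr1 are shown 5′ to 3′ along the gene, with the RUNX core of either strand in capitals. That core starts 130 bases before the start of Prf1, 93 and 34 before that of Gzmb, 50 before that of Gzma, and 176 and 41 before that of Ncr1.
Prf1 (chr10:61297586-61297885, plus strand): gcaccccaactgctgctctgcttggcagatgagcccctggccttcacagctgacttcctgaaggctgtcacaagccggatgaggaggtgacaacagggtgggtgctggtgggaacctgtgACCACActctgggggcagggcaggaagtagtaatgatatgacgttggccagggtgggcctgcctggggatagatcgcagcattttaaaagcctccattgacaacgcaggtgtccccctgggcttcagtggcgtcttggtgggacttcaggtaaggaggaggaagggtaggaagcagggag
Gzmb (chr14:56262285-56262584, minus strand): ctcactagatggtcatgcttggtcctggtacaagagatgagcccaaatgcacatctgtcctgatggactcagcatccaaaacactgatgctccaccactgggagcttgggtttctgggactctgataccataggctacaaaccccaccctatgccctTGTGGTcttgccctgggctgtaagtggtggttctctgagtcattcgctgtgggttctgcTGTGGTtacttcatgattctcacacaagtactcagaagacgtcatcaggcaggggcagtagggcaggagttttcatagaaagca
Gzma (chr13:113100932-113101231, minus strand): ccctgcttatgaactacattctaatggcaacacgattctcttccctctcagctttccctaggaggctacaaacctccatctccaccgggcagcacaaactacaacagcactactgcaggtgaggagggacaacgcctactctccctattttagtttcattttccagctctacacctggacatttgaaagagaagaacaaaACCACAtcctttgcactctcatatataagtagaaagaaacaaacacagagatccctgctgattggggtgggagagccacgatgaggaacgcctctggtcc
Ncr1 (chr7:4337465-4337764, plus strand): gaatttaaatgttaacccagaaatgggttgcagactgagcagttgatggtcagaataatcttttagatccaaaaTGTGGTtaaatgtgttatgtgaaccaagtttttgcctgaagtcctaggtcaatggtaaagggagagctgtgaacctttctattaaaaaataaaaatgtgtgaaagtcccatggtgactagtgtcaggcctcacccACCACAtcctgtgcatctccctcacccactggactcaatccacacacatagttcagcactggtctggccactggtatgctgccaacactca

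Genes of T and natural killer cells, of signals that reach them and of related lymphoid cells were followed in 11 lists with 162 measured genes, many of which other cells make too. Of the 162, 30 passed the threshold in limma, 26 higher and 4 lower with smoke, where 8.20% of all genes passed, 4.94% higher and 3.27% lower. The counts of single lists below are to be read beside the same shares. The list genes and all genes are not alike, however. In red 128 of the 162 were well above background on all arrays, against 17157 of all 27669 genes. The lists were also chosen with earlier results of these data known. An excess of calls in these lists can therefore not be read from the shares. The median difference over the 162 genes was 0.073, beside -0.0042 over all genes. With the slide as a block 45 passed, beside 3808 of all 27669 genes (13.8%). Without room air replicate 1, 42 passed, beside 2857 of all genes. Without slide 4, 23 of the 30 passed, and 22 of the 30 passed whichever single array was left out. In the red channel alone, scaled at its 75th percentile, 10 of them did not pass, among them Cd6, Zap70, Tnfrsf4, Cd96, Id3, Runx3, Ccr7, Hcst and Id2 (adjusted p from 0.0507 to 0.284). With the scanner's own log ratio 8 did not pass, among them Cd6, Icos, Runx3, Ccr7, Hcst, Il12b and Calca (adjusted p from 0.0505 to 0.869).

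Costimulatory and checkpoint receptors set how far an activated T cell goes. Of 14 measured, 6 rose and 0 fell, with a list median of 0.32. Pdcd1, the inhibitory receptor PD-1, stood at -2.62, -3.39, -3.62, -3.06 and -3.15 with room air and at -1.74, -2.37, -2.20, -2.42 and -2.09 with smoke. The groups did not overlap, although the lung remained below the reference. Pdcd1 rose by 1.00 ± 0.18 (adjusted p = 0.00533 in limma). Icos, a costimulator of activated T cells, went from 1.23 to 1.86 with room air to 2.02 to 2.76 with smoke, a rise of 0.91 ± 0.15 (adjusted p = 0.00299), which was 1.55 with the scanner's own log ratio and 0.51 as the mean of its probes. Havcr2, which encodes TIM-3 and is also made by macrophages, rose by 1.15 ± 0.080 (adjusted p = 1.03e-05), or by 0.67 as the mean of its probes. Tnfrsf4 (OX40) and Tnfrsf18 (GITR), receptors carried by activated and regulatory T cells, rose by 0.74 and 0.54 (adjusted p = 0.0011 and 0.0016). These 5 passed without slide 4 and in each leave-one-out fit. Cd96 rose by 0.32 (adjusted p = 0.0236) and missed the threshold without slide 4 (adjusted p = 0.0768) and without slide 1 (0.0821). Its call held in 6 of 10 leave-one-out fits.

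Of 15 receptors for homing and cytokines, 5 were higher and 1 lower, with a list median of 0.15. Cxcr6 and Itgae, the chemokine receptor and the integrin chain carried by T cells that stay in tissue, rose by 0.86 ± 0.18 and 0.82 ± 0.12 (adjusted p = 0.0145 and 0.00186 in limma). Il7r, the receptor chain for the survival cytokine IL-7, rose by 0.86 ± 0.14 (adjusted p = 0.00268), or by 0.33 as the mean of its probes. S1pr1, with which lymphocytes leave tissue and which vessel cells make in abundance, fell by 0.55 (adjusted p = 0.00705). Itgae reached 1.87 with room air and began at 2.18 with smoke, and S1pr1 began at 3.81 with room air and reached 3.73 with smoke. Ccr7, the receptor for entry into lymph nodes, rose by 0.44 (adjusted p = 0.0402) and passed in 3 of 10 leave-one-out fits, but not without slide 1 (adjusted p = 0.0574).

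Of 12 genes of the antigen receptor complex and its co-receptors, Cd6 alone passed, with a rise of 0.43 (adjusted p = 0.0286 in limma; 0.097 without slide 4; passed in 4 of 10 leave-one-out fits), and as the mean of its probes it was at 0.23 (adjusted p = 0.0532). With the slide as a block 4 passed, all higher: Cd6, Cd3g, Cd3d and Cd2, the last 3 named after their values were seen, at 0.43, 0.35 and 0.40 with blocked adjusted p of 0.00539, 0.0327 and 0.0284. Without the block their adjusted p was 0.153, 0.349 and 0.277, and in the red channel alone with the block none of the 12 genes passed in limma. Cd3g and Cd3d are partners of Cd3e in the CD3 complex, and Cd247, a further chain, was at -0.016. Of 17 signalling genes, Zap70, the kinase that docks on the activated receptor, rose by 0.40 ± 0.069 (adjusted p = 0.00413). Over these signalling genes 1 was called higher and 1 lower, and 4 were called under the block. Without room air replicate 1, 4 were called, 3 of them higher, and without slide 4 only 1, higher. Of 14 factors of T cell lineages, Id3 fell by 0.54 ± 0.059 (adjusted p = 0.000257) and Runx3, a RUNX factor of killer cells, rose by 0.34 (adjusted p = 0.0405), a call held in 2 of 10 leave-one-out fits and lost without slide 4 (adjusted p = 0.138). Runx3 was at 0.66 in the red channel alone at the 75th percentile, 0.59 with the scanner's own log ratio, 0.60 with an offset of 0 and 0.20 as the mean of its probes. With the block 5 of these factors passed.

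Among 18 natural killer receptors, 5 were higher and 0 lower, with a list median of 0.047. Fcgr3, an antibody receptor, and Tyrobp and Hcst, the adaptors DAP12 and DAP10, rose by 1.07, 0.96 and 0.52 (adjusted p = 0.000146, 4.2e-05 and 0.0229 in limma), and macrophages also make these. The Hcst call held in 6 of 10 leave-one-out fits, and Fcgr3 was at 1.65 in the red channel alone at the 75th percentile. The probes named Klra8 and Klra3 rose by 0.96 and 0.63 (adjusted p = 0.000366 and 0.00229), and by 1.74 and 1.52 in the red channel alone at the 75th percentile. With the scanner's own log ratio they were at 1.81 and 1.26, and Klra3 was at 1.10 with an offset of 0. The probe named Klra7 was at -0.31 and did not pass (adjusted p = 0.159 in limma). Klra genes are near copies of each other whose set differs between inbred strains, so the copy these probes read in BALB/c lungs is uncertain. Klrb1c and Klrk1, activating receptors, did not pass: Klrb1c was at -0.23 and Klrk1 at -0.15 (adjusted p = 0.304 and 0.315 in limma). Klrk1 was well above background on 3 room air and 2 smoke arrays. Slamf7, a further receptor not called, was at 0.16 (adjusted p = 0.538 in limma). Of the 18 differences, 11 lay above 0 and 7 below. Of 7 natural killer factors, Id2 rose by 0.28 (adjusted p = 0.0228; 0.0644 without slide 4; passed in 7 of 10 leave-one-out fits), while Eomes and Tbx21, the T-box factors that set the cytotoxic programme, were at -0.28 and -0.27 (adjusted p = 0.220 and 0.625). Ikzf1, also not called, was at 0.22 (adjusted p = 0.616 in limma). Of the 7 differences, 2 lay above 0 and 5 below. The list median was -0.18, 2 genes passed with the block and 2 without slide 1, and Id2 was at 0.18 with median centring. Klrb1c, Klrk1, Eomes and Tbx21 were picked after their values were seen, for their known part in these cells. Klra7, Slamf7 and Ikzf1 were also added with their values known.

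Of 21 further granule and death ligand genes, 2 rose and 0 fell. Ctsc, the protease that activates granzymes and is made by many myeloid cells, rose by 0.77 ± 0.13 (adjusted p = 0.00346 in limma), and Stxbp2, which helps granules fuse with the membrane, rose by 0.44 ± 0.084 (adjusted p = 0.0081). With the block 4 of the 21 passed, where 13.8% of all genes did, and the list median was -0.036. Among 17 cytokines of T and natural killer cells 0 passed in limma, 4 had an unadjusted p under 0.05, 2 passed with the block, and 0 passed the exact Wilcoxon test. Without room air replicate 1 the count was 5, all higher, and without slide 1 it was also 5. Ccl4 had the largest difference, 1.56 ± 0.70 (adjusted p = 0.266), with room air replicate 1 at 1.02 and the other room air arrays at -3.38 to -2.73, below all smoke values. Without that array it passed, at 2.38 (adjusted p = 1.9e-06), and without slide 1 at 2.46 (adjusted p = 5.07e-06). Of 17 signals that draw or sustain these cells, 2 were higher and 1 lower, while without room air replicate 1 there were 6 higher and 1 lower, and without slide 1 there were 5 and 1. Il18, which with IL-12 activates natural killer cells, rose by 0.82 ± 0.075 (adjusted p = 6.95e-05). Il12b, a chain of IL-12, rose by 0.61 ± 0.13 (adjusted p = 0.0155; 0.0684 without slide 4), and was at 2.32 in the red channel alone at the 75th percentile, 2.30 with the scanner's own log ratio and 1.45 with an offset of 0. Cx3cl1, the chemokine that draws cytotoxic cells bearing its receptor, stood at 0.78, 0.54, 0.17, 0.48 and 0.21 with room air and at -0.20, -0.18, -0.68, -0.26 and -0.42 with smoke. Its groups did not overlap, and it fell by 0.79 ± 0.13 (adjusted p = 0.00315), or by 0.40 as the mean of its probes. Of 10 genes of group 2 innate lymphoid cells, which share cytokines with helper T cells, Calca rose by 1.44 ± 0.26 and Hpgds by 0.57 ± 0.089 (adjusted p = 0.00562 and 0.00252), and neither belongs to those cells only. Hpgds was well above background in red on 3 of 5 room air arrays, and was at 2.12 in the red channel alone at the 75th percentile, 2.25 with the scanner's own log ratio and 1.60 with an offset of 0. Calca was at 2.24, 0.30 and 0.98 in the same settings and at 0.92 as the mean of its probes, and did not pass with an offset of 0 (adjusted p = 0.274) or the scanner's own log ratio.

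**Figure D4:**
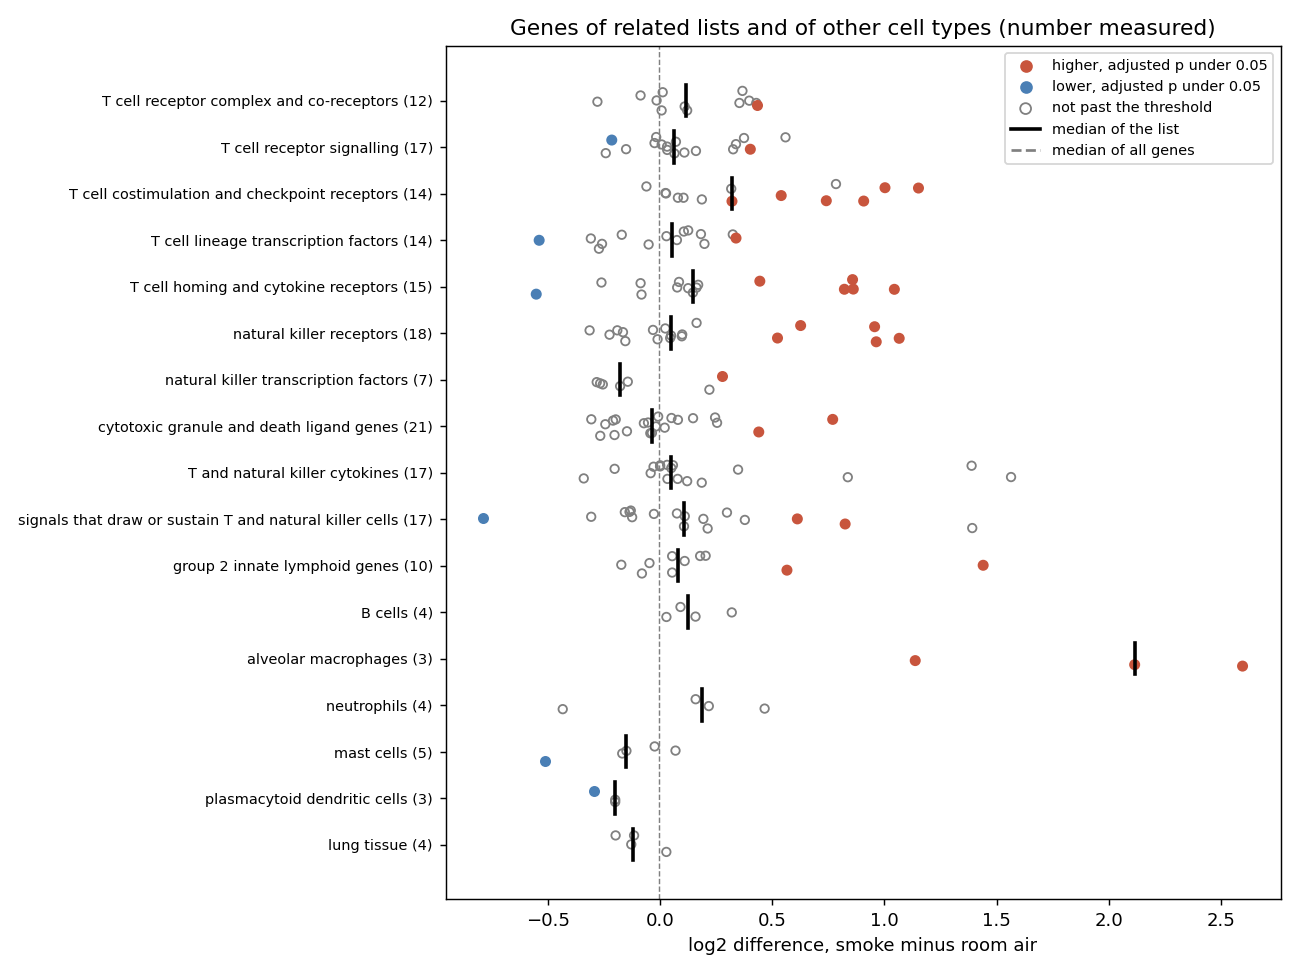
Log2 difference between smoke and room air for each gene of the related lists and of other cell types, with the number measured in brackets. Filled points passed the threshold in limma, higher in red and lower in blue, black bars are list medians and the dashed line is the median of all genes (-0.0042). Costimulatory and checkpoint receptors have a median of 0.32 and alveolar macrophage genes of 2.12, the highest shown.

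Markers of alveolar macrophages moved with the treatment. All 3 measured, Marco, Chil3 and Mrc1, rose, by 2.60, 2.12 and 1.14 (adjusted p = 0.00248, 0.000138 and 0.00115 in limma), and Ear2 had no named probe. With the scanner's own log ratio Mrc1 did not pass (0.91, adjusted p = 0.121 in limma). The mean log2 ratio of the 3 was 3.71, 3.16, 3.07, 3.25 and 3.05 with room air and 5.24, 5.14, 5.45, 5.03 and 5.11 with smoke, with no overlap, and Chil3 was the brightest in red. Among the genes that rose here, Havcr2, Fcgr3, Tyrobp, Hcst, Ctsc and Il18 are also made by macrophages, and the part of macrophage RNA in any of these differences was not tested. Of the 4 markers of lung tissue 0 passed in limma, 0 had an unadjusted p under 0.05 and 0 passed the exact Wilcoxon test, and their median difference was -0.12.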

How the data were processed

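RNA of 10 mouse lungs was measured on 2-colour Agilent arrays. The authors deposited scanner files, made with Feature Extraction 9.5.3.1 per the file headers (9.1 per the labels), which hold the intensity of each spot and its background, flags, and a log10 ratio of red over green. The authors also deposited log2 values, the mean of both channels, used only to check the assignment. Groups and replicate numbers came from the labels.

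Mean intensities were corrected with normexp (offset 50, which compresses dim probes), each array's ratios then underwent loess normalization, and spots with an outlier flag were left out. Spots of a probe were averaged, and a gene was represented by its probe brightest in red. Of 41174 probes, 22951 were named through their sequence accession, 6659 and 3109 by a current symbol or a synonym, and 8455 as in the file. The test was two-sided in limma 3.58.1 (R 4.3.3), and p was adjusted over 41173 probes by the method of Benjamini and Hochberg, with a threshold of 0.05. The methods of the study name limma for normalizing the mouse arrays, and Wilcoxon tests with the same adjustment for calling genes. With 5 mice against 5 the smallest exact Wilcoxon p is 0.00794, so that test was an alternative. In red 64.9 to 77.5% of spots were well above background, and precision is limited by the number of arrays.

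Slides paired the arrays: same-numbered arrays deviated together from their group means (r of 0.157, 0.461, 0.460, 0.550 and 0.415, while other pairs had a median of -0.123 and reached 0.205). Slide 1 therefore does not stand out from the other pairs. An alternative fit took the slide as a block. The arrays were scanned on 4 days.

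The members and lists were chosen with earlier results of these data known. The text names each member, of each list called genes from among the 6 with the largest differences (or, with 0 called, the largest), and the 5 genes most like Cd3e and Prf1. Alternatives changed the test, channel, background, normalization, filters, probe choice and block, and left out arrays. Of 26, 3 were added after seeing the data.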

Additional observations from a re-analysis of the deposited data

Results flagged for a closer look

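In 98 groups of 5 arrays, from 49 probes of the genes named above that were well above background on every array, 11 values lay far from the other arrays of their group, where chance gives about 1 in 20 groups (gap to the nearest value over 0.71 of the range). Among the members this holds for Gzma, at 1.45 on smoke array 4. Room air array 1 holds 5 of the others: Ccl4 at 1.02, S100a8 at 4.39, Ctsc at 4.28, Il12b at 0.78 and Id3 at 1.09, the last of which was low. Smoke array 3 was high for Havcr2 (3.14), Mrc1 (5.15) and Il12b (1.19). Marco was low on smoke array 4 (4.97) and Id2 was low on room air array 3 (-0.43). The Ccl4 and S100a8 differences between the groups did not pass the threshold in limma with room air array 1 (1.56 and 0.47) and did without it (2.38 and 0.97, adjusted p = 1.9e-06 and 0.00458). What set these arrays apart was not tested.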

How the results depend on the processing

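The 10 members were followed under 26 alternatives, 3 of which (slide 1 left out, slide 4 left out, and the replicate block with the red channel alone) were chosen after seeing the data. Of 260 such values, 240 kept their direction and their side of the threshold. Part of these could not change, so the count is no measure of how firm the results are. The slide as a block and the exact Wilcoxon test keep the difference of the main fit. The Wilcoxon test also passed no probe of the array, and green alone reads the reference and not the lung. The limits include the number of arrays and the dim reference signal of Prf1, Gzmb, Ncr1 and Klrd1. Place on the slide goes with treatment throughout.

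With the replicate block 5019 probes were called in place of 2906, 2 natural killer and cytotoxic members in place of 1, and Gzmb passed at -0.55. The block changed no other call among the members. Over the array the calls were 0 in the exact Wilcoxon test (5446 at an unadjusted p under 0.05), 1759 in red alone at the 75th percentile, 6 in green alone, 1660 with an offset of 0 and 1434 with median centring. The split of higher against lower calls was 1793 to 1113 at first, 1216 to 444 with an offset of 0, and 687 to 747 with median centring. Genes called over the related lists numbered 30, and 0 with Wilcoxon, 0 in green alone, 18 with an offset of 0 and 19 with median centring.

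Called T cell members were 0, but 1 (Foxp3) with no background correction (0.17) and 1 (Foxp3 at 1.44, not an exact size, since the gene was near background on most room air arrays) with the replicate block in red alone. Called natural killer and cytotoxic members were 1, but 0 with Wilcoxon (Prf1 at -0.64), in green alone (-0.50), with an offset of 0 (-0.86), with scaling between arrays (-0.59), and with the replicate block in red alone (-0.90), and 2 without slide 1, where Ncr1 stood at -0.43. With the scanner log ratio Ncr1 passed (-0.89) and Prf1 did not (-0.40). The T cell median of 0.056 became 0.15 in red alone, with or without the block, -0.060 in green alone, 0.18 with the scanner log ratio and 0.11 with an offset of 0. The natural killer and cytotoxic median of -0.44 became -0.77 in red alone, with or without the block, and -0.75 with an offset of 0, and it was -0.48 in green alone, where most of these genes are near background.

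Directions turned with the scanner log ratio for Cd8a (0.26), Klrd1 (0.44) and Nkg7 (0.067), with an offset of 0 for Klrd1 (0.14), and in green alone, the reference channel, for Foxp3 (-0.16), Ncr1 (0.024), Gzma (0.46), Cd6 (-0.035), Zap70 (-0.040), Pdcd1 (-0.0095), Icos (-0.40), Tnfrsf4 (-0.098), Cd96 (-0.021), Id3 (0.010), Il7r (-0.064), Klra8 (-0.073), Stxbp2 (-0.0077), Cx3cl1 (0.024) and Hpgds (-0.13). The causes were not tested.

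Leaving out each array in turn gave 2102 to 3660 called probes, 0 to 0 T cell members, 1 to 2 natural killer and cytotoxic members and 24 to 42 related genes. The median difference ran from 0.019 to 0.069 for T cell members, from -0.51 to -0.33 for natural killer and cytotoxic members and from 0.056 to 0.077 for the related lists. Differences ran from 0.013 to 0.14 for Cd3e, 0.025 to 0.045 for Cd4, -0.22 to -0.036 for Cd8a, 0.074 to 0.14 for Foxp3, -0.39 to -0.27 for Ncr1, -0.39 to -0.17 for Klrd1, -0.25 to -0.12 for Nkg7, -0.74 to -0.32 for Gzma, -0.65 to -0.43 for Gzmb and -0.71 to -0.54 for Prf1.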

Other observations

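Markers of other blood cells were read as values only. Of 4 B cell genes and 4 neutrophil genes, 0 and 0 passed in limma, 0 and 0 had an unadjusted p under 0.05, and 0 passed the exact Wilcoxon test, with median differences of 0.12 and 0.19. Cd79b, a chain of the B cell receptor, had the largest B cell difference (0.32, adjusted p = 0.342 in limma), and S100a8 the largest among neutrophil genes (0.47, adjusted p = 0.718), which was 0.97 without room air replicate 1 (adjusted p = 0.00458) and 0.86 without slide 1 (adjusted p = 0.0092), where it passed, but 0.25 without room air replicate 4 (adjusted p = 0.858). Of the 4 neutrophil differences 3 lay above 0, and the other, Retnlg, was at -0.43 (adjusted p = 0.557 in limma). Of 5 mast cell genes Cma1, a chymase, fell by 0.51 (adjusted p = 0.048), a call held in 2 of 10 leave-one-out fits and lost without room air replicate 1 (adjusted p = 0.0575), while 2 mast cell genes passed without slide 4. Of 3 genes of plasmacytoid dendritic cells, Tcf4 fell by 0.29 (adjusted p = 0.0179 in limma, and 0.0802 without slide 4). Tcf4 is the factor that sets their identity and is also made by many other cells. Bst2 and Siglech were each at -0.20. Siglech passed with the slide as a block (adjusted p = 0.0232 in limma), and not without it (0.0738).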
